A study of Bos taurus with 12 samples.

Results

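The genes described here make, break down, carry or sense prostaglandins in the bovine endometrium. They are PTGS1, PTGS2, PTGES, PTGIS, PTGDS, AKR1B1, HPGD, SLCO2A1, PTGFR and PTGER2, taken by gene symbol. All probe sets that the platform annotation assigns to exactly 1 of these symbols were included, which gave 16 probe sets for 10 genes, out of 24016 probe sets tested and 9155 named genes. PTGS1 and HPGD each had 2 probe sets and PTGS2 and PTGFR each had 3, while the other 6 genes had 1.

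Endometrial RNA from Simmental heifers was hybridised to an Affymetrix bovine expression array, with 1 RNA pool on each of 12 arrays. The pools formed 4 groups of 3: receptive endometrium on day 7, non-receptive endometrium on day 7, receptive endometrium on day 3 and non-receptive endometrium on day 3 of the estrous cycle. Receptivity was assigned from the pregnancy outcome after transfer of embryos produced in vivo, and no treatment of the heifers is named in the labels. The labels give no number of animals per pool and do not state that different pools hold different animals, so the p-values below measure the spread between pools only.

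Prostaglandins are short-lived lipid signals made from arachidonic acid, which phospholipases free from membranes. The cyclooxygenases PTGS1 and PTGS2 turn it into prostaglandin H2, and terminal synthases then make prostaglandin E2, F2α, D2 or prostacyclin. The products act on receptors at the cell surface, and a transporter brings them back into cells, where HPGD inactivates them. In cattle, pulses of prostaglandin F2α from the endometrium end the life of the corpus luteum late in the cycle, and prostaglandin E2 is known as a luteal protector.

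The transporter SLCO2A1 was 1.56-fold more abundant on day 7 than on day 3 averaged over both receptivity groups, while its change within either group alone did not pass the test. The breakdown enzyme HPGD was 2.06-fold more abundant on day 7 than on day 3 in non-receptive endometrium, while in receptive endometrium the estimated change was close to 0. The direct test of a difference between these changes did not pass (limma, adjusted p = 0.999). The call held in 11 of 21 alternative fits, and the second HPGD probe set did not pass (adjusted p = 0.209). On day 7 both HPGD probe sets, which measure 1 gene on the same arrays, were lower in all 3 receptive than in all 3 non-receptive pools. Of all probe sets 9.23% did not overlap on day 7, with 5.23% lower in receptive endometrium. The HPGD difference did not pass correction over all probe sets. PTGS2 had the widest range of all members, with single pools differing by almost 7 log2 units, and its day change did not pass the test. No member differed between receptive and non-receptive endometrium at an adjusted p under 0.05 on either day.

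Values are log2 signals, on which 1 unit is a doubling, and 0 is the floor of the deposited scale. The level of a probe set also depends on its probes, so levels are not set against each other between probe sets. Changes and p-values are from limma, fitted to all 12 arrays with 4 group means, with p adjusted by the Benjamini-Hochberg method over all 24016 probe sets, and errors of changes are standard errors. Because pools are mixed tissue, fewer cells of a type and less RNA per cell cannot be told apart.

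Array medians lay between 6.64 and 6.76, and between 257 and 450 probe sets were at the floor on each array. The mean poly-A spike-in signal was 6.97 to 7.13 in 3 pools, namely pool 2 of the non-receptive day 7 group and of both day 3 groups, and 5.92 to 6.51 in the other 9. The excess of the 3′ over the 5′ actin probe set, which is larger where RNA is less intact, was 0.82 to 3.11 in receptive pools and 0.02 to 0.93 in non-receptive pools. It was 0.82 to 1.25 against 0.02 to 0.63 on day 7, and 1.05 to 3.11 against 0.48 to 0.93 on day 3. The receptivity groups thus did not overlap in it on either day, so receptivity and this measure cannot be told apart. The 7 epithelial markers averaged 10.82 to 11.33 in every pool. None of them passed the test between days, with averaged estimates from −0.222 (CDH1) to 0.398 (KRT7). No defining marker of the epithelium, stroma or endothelium was at the floor in any pool.

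**Figure D1:**
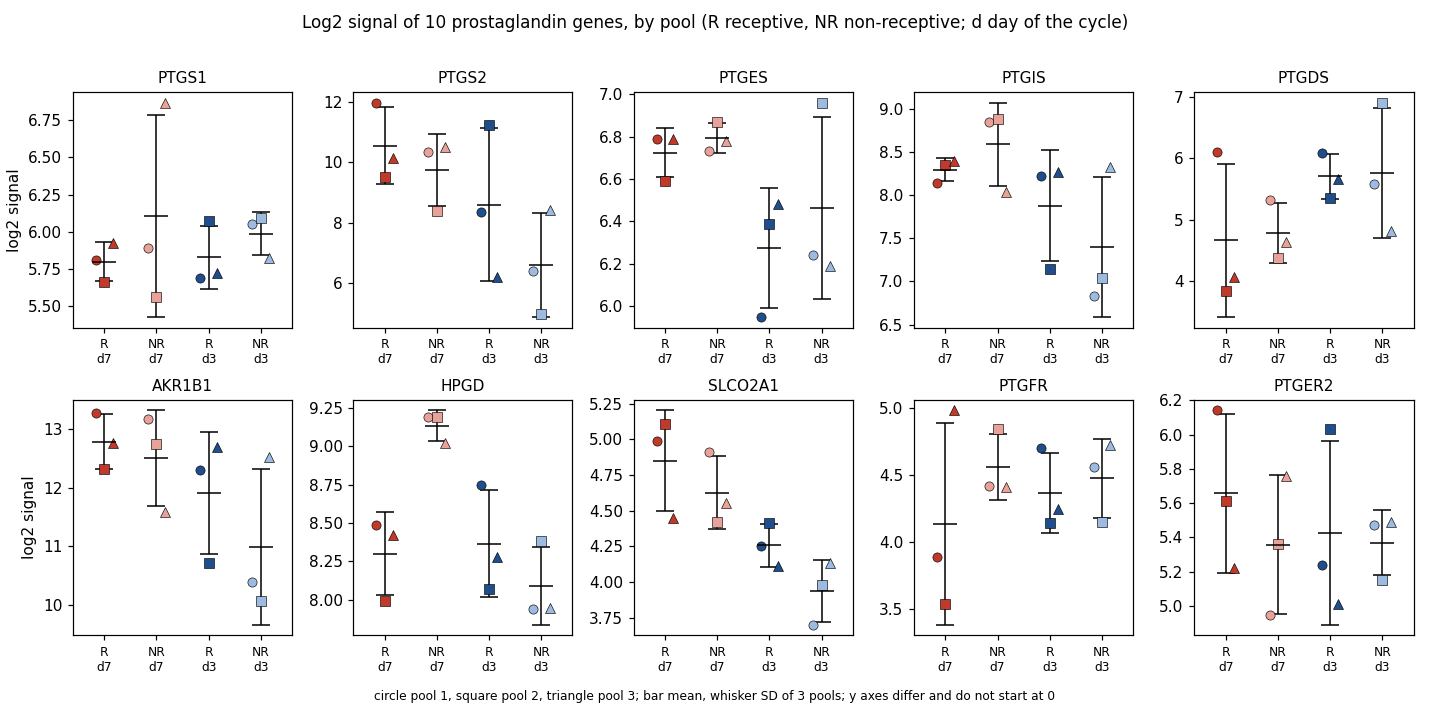
Log2 signal of the 10 genes in each of the 12 pools (y axes differ and do not start at 0), for the brightest probe set of each gene. Bars are means and whiskers are SDs of 3 pools. HPGD stands at 9.02 to 9.19 in the non-receptive day 7 pools and at 7.94 to 8.75 in all other pools, and SLCO2A1 at 4.42 to 5.11 in the day 7 pools and at 3.70 to 4.41 in the day 3 pools.

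Of the cyclooxygenases, PTGS1 is the form that most tissues make at all times and PTGS2 the form that stimuli induce. The leading PTGS1 probe set, the one with the higher mean, had log2 signals of 5.81, 5.66 and 5.92 in receptive day 7 pools, 5.89, 5.56 and 6.87 in non-receptive day 7 pools, 5.69, 6.07 and 5.72 in receptive day 3 pools, and 6.05, 6.09 and 5.82 in non-receptive day 3 pools. All groups overlapped, and 1 non-receptive day 7 pool lay above the rest. The day 7 level averaged over both receptivity groups was 5.95 ± 0.47 and the day 3 level 5.91 ± 0.184 (SD, n = 6 each), a log2 change of 0.045 with a 95% interval of −0.401 to 0.491 (limma, adjusted p = 0.908). The other PTGS1 probe set had an estimated change of −0.385 ± 0.207 (adjusted p = 0.243), and in it the same non-receptive day 7 pool was the highest of its group, at 4.88.

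The leading PTGS2 probe set, listed against the RefSeq mRNA, had log2 signals of 11.98, 9.52 and 10.16 in receptive day 7 pools and 10.36, 8.38 and 10.50 in non-receptive day 7 pools. On day 3 they were 8.37, 11.24 and 6.20 in receptive pools and 6.41, 4.99 and 8.41 in non-receptive pools. The highest and lowest values of the 12 pools were thus 11.98 and 4.99, and the days overlapped in both receptivity groups, in non-receptive endometrium only by the lowest day 7 pool (8.38) and the highest day 3 pool (8.41). The receptivity groups overlapped on both days. The day 7 level averaged 10.15 ± 1.187 and the day 3 level 7.60 ± 2.22 (SD, n = 6 each). This was a log2 change of 2.55 ± 0.916, with an interval of 0.503 to 4.59, which did not pass the test over all probe sets (limma, adjusted p = 0.092). It was 1.95 in receptive endometrium (adjusted p = 0.438) and 3.14 in non-receptive endometrium (adjusted p = 0.208).

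The PTGS2 day change depended on single pools. Without pool 2 of receptive day 3 endometrium, whose 11.24 exceeded every non-receptive day 7 pool, the averaged change was 3.21 (limma, adjusted p = 0.0325), and without the 3 pools of high spike-in signal it was 3.14 (adjusted p = 0.0486). Across the 20 alternatives tried it lay between 1.95 and 3.21 and passed the test in those 2 alone. The difference between receptive and non-receptive endometrium was 2.0 on day 3, with an interval of −0.89 to 4.89 (adjusted p = 0.942). Without the 3 pools of high spike-in signal this day 3 difference was −0.125 (adjusted p = 0.992). On day 7 the difference was 0.807 (adjusted p = 0.923).

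Both further PTGS2 probe sets were listed against other transcript records than the RefSeq mRNA, and each was at the floor of 0 in 1 pool. The second one had 7.30, 4.77 and 4.83 in receptive day 7 pools, 5.74, 3.04 and 5.17 in non-receptive day 7 pools, 3.72, 5.75 and 3.15 in receptive day 3 pools, and 3.97, 0 and 4.81 in non-receptive day 3 pools. In 3 of the 4 groups its highest pool was also the highest pool of the main probe set, the exception being non-receptive day 7. The third one lay between 0 and 4.07 and did not follow the main probe set: in non-receptive endometrium its 3 day 7 values of 2.40, 3.12 and 0 were all below its day 3 values of 3.59, 3.26 and 3.48. Estimated day changes averaged over both groups were 1.57 for the second probe set (limma, adjusted p = 0.283) and −0.522 for the third one (adjusted p = 0.575), and neither is given as a fold because of the values at the floor.

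**Figure D2:**
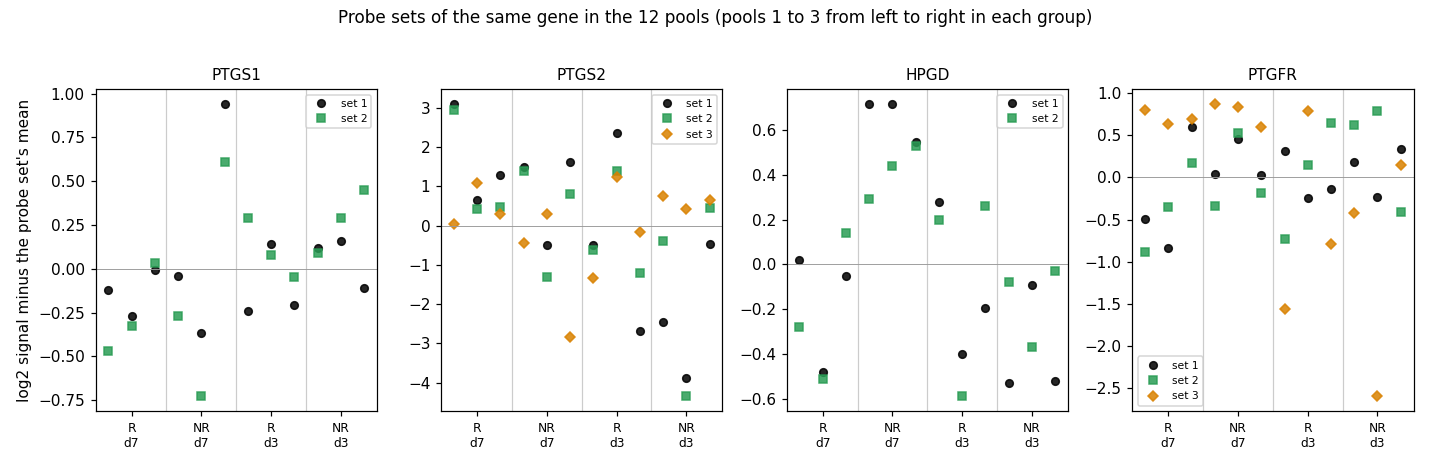
Log2 signal of each probe set minus its own mean over the 12 pools, for the 4 genes with several probe sets, with pools 1 to 3 from left to right in each group. The HPGD probe sets both have their 3 highest values in the non-receptive day 7 pools, whereas the third PTGS2 probe set and the third PTGFR probe set depart from the other probe sets of their genes.

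PTGES, the inducible synthase of prostaglandin E2, had log2 signals of 6.79, 6.59 and 6.79 in receptive day 7 pools and 6.73, 6.87 and 6.78 in non-receptive day 7 pools. On day 3 they were 5.95, 6.39 and 6.48 in receptive pools and 6.24, 6.96 and 6.19 in non-receptive pools. The receptive day 7 pools were all above the receptive day 3 pools, while 1 non-receptive day 3 pool, at 6.96, was the highest of all 12. The averaged day change was 0.39 ± 0.149, with an interval of 0.057 to 0.723 (limma, adjusted p = 0.109). Without that pool it was 0.514 (adjusted p = 0.0253).

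PTGIS makes prostacyclin, a dilator of vessels. Its log2 signals were 8.14, 8.35 and 8.39 in receptive day 7 pools, 8.85, 8.88 and 8.03 in non-receptive day 7 pools, 8.22, 7.14 and 8.27 in receptive day 3 pools, and 6.83, 7.04 and 8.32 in non-receptive day 3 pools. On day 3, 3 pools were low, at 6.83 to 7.14, and the other 3 lay at 8.22 to 8.32, within the range of the day 7 pools. The averaged day change was 0.803 ± 0.302 (limma, adjusted p = 0.104). It was 1.19 in non-receptive endometrium (adjusted p = 0.158) and 0.417 in receptive endometrium (adjusted p = 0.639).

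AKR1B1, an aldose reductase that in bovine endometrium acts as a prostaglandin F synthase, divided the pools as PTGIS did. Its log2 signals were 13.27, 12.32 and 12.77 in receptive day 7 pools, 13.17, 12.74 and 11.59 in non-receptive day 7 pools, 12.30, 10.72 and 12.69 in receptive day 3 pools, and 10.39, 10.07 and 12.52 in non-receptive day 3 pools. The 3 day 3 pools low in PTGIS were the 3 low here, at 10.07 to 10.72, and the pool lowest on day 7 was also the same for both genes. Of these low day 3 pools, pool 2 of each receptivity group had high spike-in signal (6.97 and 7.03). Pool 1 of non-receptive day 3 endometrium, also low, did not (6.39). The non-receptive day 7 pool of high spike-in signal (7.13) was not low here, at 12.74. The averaged day change was 1.20 ± 0.506, a 2.29-fold change with a log2 interval of 0.065 to 2.325, and did not pass the test (limma, adjusted p = 0.143). Without pool 3 of non-receptive day 3 endometrium it was 1.58 (adjusted p = 0.0401), and PTGIS was then at 1.03 (adjusted p = 0.0281). Without the 3 pools of high spike-in signal the AKR1B1 change was 0.608 (adjusted p = 0.5) and the PTGIS change 0.457 (adjusted p = 0.408).

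PTGDS makes prostaglandin D2 and had the lowest estimated day change of the 10 leading probe sets. It had log2 signals of 6.10, 3.83 and 4.06 in receptive day 7 pools, 5.32, 4.38 and 4.64 in non-receptive day 7 pools, 6.09, 5.36 and 5.67 in receptive day 3 pools, and 5.58, 6.91 and 4.81 in non-receptive day 3 pools. A receptive day 7 pool at 6.10 lay among the day 3 values, and the days overlapped in both receptivity groups. The averaged change was −1.015 ± 0.458, with an interval of −2.037 to 0.007 (limma, adjusted p = 0.165), and PTGDS passed the test only without that receptive day 7 pool (−1.374, adjusted p = 0.0438).

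HPGD oxidises prostaglandins at the hydroxyl group their receptors recognise and is the main route of their inactivation. Its leading probe set had log2 signals of 8.49, 7.99 and 8.42 in receptive day 7 pools and 9.19, 9.19 and 9.02 in non-receptive day 7 pools. On day 3 it had 8.75, 8.07 and 8.28 in receptive pools and 7.94, 8.38 and 7.95 in non-receptive pools. The non-receptive day 7 pools stood above all other 9 pools, and the 3 other groups overlapped with each other.

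In non-receptive endometrium HPGD averaged 9.13 ± 0.098 on day 7 and 8.09 ± 0.251 on day 3 (SD, n = 3 each). The log2 change of 1.04 ± 0.205, with an interval of 0.585 to 1.501, passed the test (limma, adjusted p = 0.0359), and HPGD was the only member called in this comparison. In receptive endometrium it averaged 8.30 ± 0.271 on day 7 and 8.37 ± 0.348 on day 3, a change of −0.067 with an interval of −0.525 to 0.391 (adjusted p = 0.895). Of all probe sets, 2.48% were called between the days in non-receptive endometrium, 0.820% as higher on day 7, and this background of 596 calls was itself only 4 without pool 1 of non-receptive day 3 endometrium. The non-receptive change stayed between 0.968 and 1.19 over 21 alternatives, but its adjusted p ranged from 0.0127 to 0.144 and passed in 11 of them. The call was lost with the pool number as a block (adjusted p = 0.0602) and in a fit of the compared arrays only (0.0853). It was also lost without any 1 of the 6 non-receptive pools (adjusted p = 0.0612 to 0.144), without pool 3 of receptive day 3 endometrium (0.0609) and without the 3 pools of high spike-in signal (0.124).

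On day 7 HPGD was 8.30 ± 0.271 in receptive and 9.13 ± 0.098 in non-receptive endometrium. The difference of −0.833 ± 0.205, with an interval of −1.291 to −0.375, had limma's p at 0.00234 before and at 0.821 after adjustment. On day 3 the difference was 0.277 (adjusted p = 0.947). The direct test of whether the day change differed between receptive and non-receptive endometrium gave −1.11 ± 0.29, with limma's p at 0.00342 before and 0.999 after adjustment. Neither the day 7 difference nor this comparison of day changes changed sign in any alternative: the day 7 difference ranged from −0.995 to −0.678.

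The second HPGD probe set had 4.95, 4.72 and 5.37 in receptive day 7 pools, 5.52, 5.67 and 5.76 in non-receptive day 7 pools, 5.43, 4.64 and 5.49 in receptive day 3 pools, and 5.15, 4.86 and 5.20 in non-receptive day 3 pools. Here too the non-receptive day 7 pools were above all others. Its change was 0.58 in non-receptive endometrium (limma, adjusted p = 0.209) and −0.173 in receptive endometrium (adjusted p = 0.74), and its day 7 difference between receptive and non-receptive endometrium was −0.637 (adjusted p = 0.821). Both probe sets measure 1 gene on the same arrays, so they are no independent samples of it. With the actin gap as a covariate, the day 7 differences were −0.995 for the leading and −0.818 for the second probe set. The receptivity groups did not overlap in the actin gap, so this fit cannot separate it from receptivity.

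The 2 HPGD probe sets were the only members of 16 whose receptive and non-receptive pools did not overlap on day 7, and both were lower in receptive endometrium. Among all probe sets 9.23% had no overlap on day 7, with 5.23% lower in receptive endometrium, so the count of 2 was close to the share over the whole array. On day 3 no member separated the receptivity groups, against 10.8% of all probe sets.

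**Figure D3:**
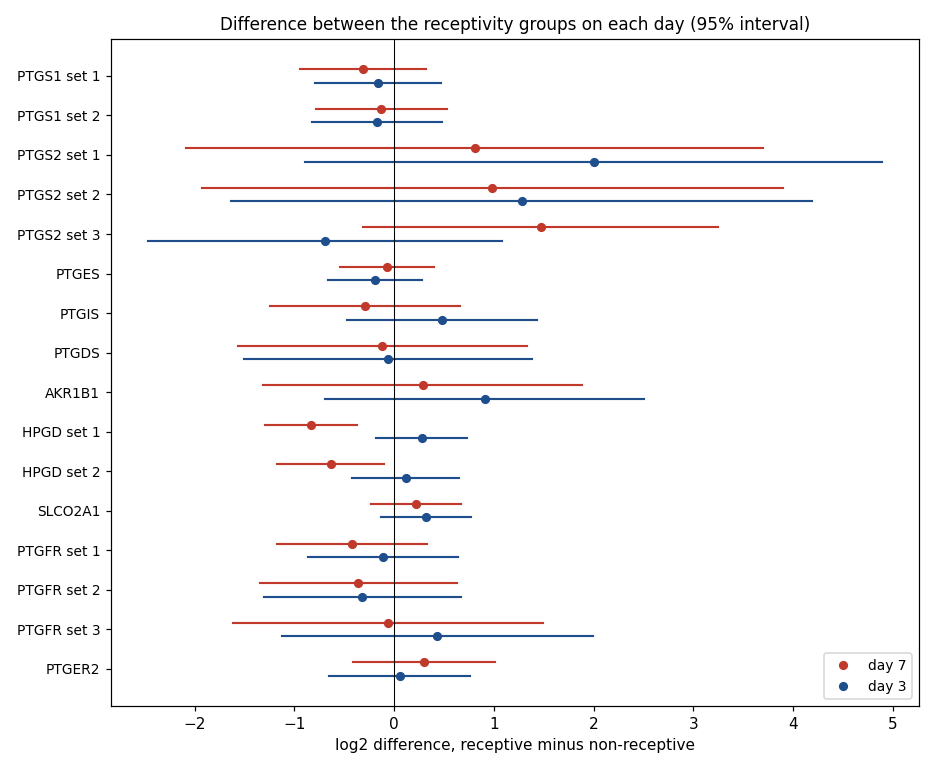
Log2 difference of receptive minus non-receptive endometrium on day 7 and on day 3 for each of the 16 probe sets, with 95% intervals from limma. The intervals of the HPGD probe sets on day 7 (−1.291 to −0.375 and −1.172 to −0.101) are the only ones that leave out 0, and none of the differences passed correction over all probe sets.

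SLCO2A1 is the prostaglandin transporter, which takes prostaglandins up from outside the cell. It had log2 signals of 4.99, 5.11 and 4.45 in receptive day 7 pools, 4.91, 4.42 and 4.55 in non-receptive day 7 pools, 4.25, 4.41 and 4.11 in receptive day 3 pools, and 3.70, 3.98 and 4.13 in non-receptive day 3 pools. All 6 day 7 pools were above all 6 day 3 pools, although the nearest values, 4.42 and 4.41, differed by very little. SLCO2A1 was the only member of 16 probe sets with no overlap between the days, against 7.72% of all probe sets.

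SLCO2A1 averaged 4.74 ± 0.3 on day 7 and 4.10 ± 0.242 on day 3 (SD, n = 6 each). The log2 change of 0.642 ± 0.143, with an interval of 0.323 to 0.961, passed the test (limma, adjusted p = 0.0179). It was 0.593 in receptive endometrium (adjusted p = 0.141) and 0.69 in non-receptive endometrium (adjusted p = 0.0994), and the difference between these changes was −0.10 with an interval of −0.735 to 0.541. It passed in 18 of 19 alternatives, including all 12 that left out 1 pool, and had an adjusted p of 0.0563 without the 3 pools of high spike-in signal. The level was low: a filter that kept probe sets with a mean signal above the 25th percentile left it out.

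PTGFR is the receptor for prostaglandin F2α, and its 3 probe sets did not move together. The leading one had log2 signals of 3.89, 3.54 and 4.98 in receptive day 7 pools, 4.42, 4.84 and 4.41 in non-receptive day 7 pools, 4.70, 4.14 and 4.25 in receptive day 3 pools, and 4.56, 4.15 and 4.72 in non-receptive day 3 pools. All groups overlapped, and the averaged day change was −0.073 (limma, adjusted p = 0.872). The second lay between 2.65 and 4.32, with a change of −0.353 (adjusted p = 0.487).

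The third PTGFR probe set, the only one of them listed against the RefSeq mRNA, had 4.21, 4.04 and 4.10 in receptive day 7 pools, 4.28, 4.24 and 4.01 in non-receptive day 7 pools, 1.85, 4.19 and 2.62 in receptive day 3 pools, and 2.99, 0.81 and 3.56 in non-receptive day 3 pools. The day 7 pools lay within 4.01 to 4.28 while the day 3 pools spread over more than 3 log2 units, and 1 of them, at 4.19, reached the day 7 level. The averaged day change was 1.48 ± 0.493 (limma, adjusted p = 0.0736). It passed the test without pool 2 of receptive day 3 endometrium (1.80, adjusted p = 0.0336), without pool 3 of non-receptive day 3 endometrium (1.75, adjusted p = 0.0441) and without the 3 pools of high spike-in signal (1.38, adjusted p = 0.0208).

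PTGER2, a receptor for prostaglandin E2 that raises cyclic AMP, had log2 signals of 6.14, 5.61 and 5.22 in receptive day 7 pools, 4.95, 5.36 and 5.76 in non-receptive day 7 pools, 5.24, 6.03 and 5.01 in receptive day 3 pools, and 5.47, 5.15 and 5.49 in non-receptive day 3 pools. All groups overlapped. The averaged day change was 0.108 with an interval of −0.392 to 0.609 (limma, adjusted p = 0.788), and the difference between receptive and non-receptive endometrium on day 7 was 0.30 (adjusted p = 0.89).

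**Figure D4:**
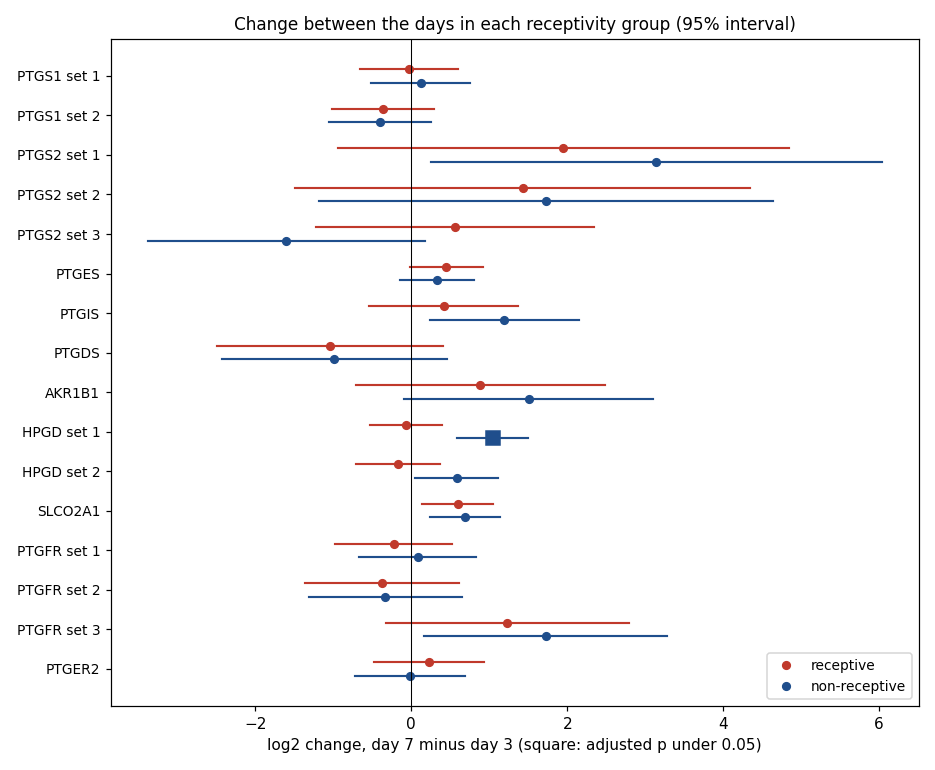
Log2 change of day 7 minus day 3 in receptive and in non-receptive endometrium for each of the 16 probe sets, with 95% intervals from limma. The square marks the 1 change with an adjusted p under 0.05, HPGD in non-receptive endometrium at 1.04, and the PTGS2 intervals are the widest of the leading probe sets.

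Over the 16 probe sets, 11 day changes averaged over both receptivity groups were above 0 and 5 were below, with a median of 0.297 against −0.05 over all probe sets. SLCO2A1 alone passed, while 14.2% of all probe sets did, 4.76% upward and 9.44% downward. An unadjusted limma p under 0.05 was reached by 7 member probe sets, against 30.8% of all probe sets, and these were of PTGS2, PTGES, PTGIS, AKR1B1, HPGD, SLCO2A1 and PTGFR, all with estimates above 0. These 7 of 16 are a larger share than that of the array, but 1 call after adjustment is too few to set the members apart from it in either direction. The members were not tested as a set.

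In receptive endometrium alone no member passed, against 1.96% of all probe sets, and 1 had an unadjusted limma p under 0.05, against 20.4%. The smallest adjusted p among members was 0.141, for SLCO2A1. The PTGES and SLCO2A1 pools did not overlap between the days there, which is 2 of 16 against 25.2% of all probe sets. In non-receptive endometrium 6 members had an unadjusted limma p under 0.05, against 20.5% of all probe sets. The days did not overlap there for 5 of 16, against 25.9%: both HPGD probe sets, SLCO2A1 and the third PTGFR probe set were higher on day 7 and the third PTGS2 probe set was lower.

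In the comparison of receptive with non-receptive endometrium no member passed on day 3, where 0.0125% of all probe sets did, and none on day 7, where none of the 24016 did. By limma's p before adjustment, 0 members on day 3 and 2 on day 7, both HPGD, were under 0.05, against 5.26% and 5.81% of all probe sets. Averaged over both days no member passed either, against 0.00416% of all probe sets, with 8 of 16 differences above 0 and a median of 0.003. The receptive day change minus the non-receptive one was estimated below 0 in 12 of 16 probe sets, whichever way each change ran, and only 1 of the 16, HPGD, had an unadjusted limma p under 0.05, against 3.39% of all probe sets, and none passed adjustment.

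A wider list of 43 further genes of the pathway was examined, of which 22 were measured, by 36 probe sets. Between days, averaged over both receptivity groups, 3 of the 36 were called higher and 0 lower on day 7, against 4.76% and 9.44% of all probe sets. PLA2G16, a phospholipase, had log2 signals of 9.67, 9.73 and 9.66 in receptive day 7 pools, 9.54, 9.11 and 9.59 in non-receptive day 7 pools, 9.15, 8.90 and 8.79 in receptive day 3 pools, and 8.77, 8.76 and 9.01 in non-receptive day 3 pools. Its day 7 pools were above the day 3 pools within each receptivity group. In receptive endometrium 5 of the 36 did not overlap between the days, against 25.2% of all probe sets. In non-receptive endometrium 11 of the 36 did not, against 25.9%. PLA2G16 had an averaged change of 0.653 ± 0.107 (limma, adjusted p = 0.00582). It was the only one of the 36 to pass in receptive endometrium alone (0.74, adjusted p = 0.0441), where 1.96% of all probe sets passed.

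DHRS4, a carbonyl reductase, was at 10.41, 10.86 and 10.71 in receptive day 7 pools, 10.45, 10.60 and 10.83 in non-receptive day 7 pools, 10.41, 10.25 and 9.99 in receptive day 3 pools, and 9.71, 9.61 and 10.28 in non-receptive day 3 pools. It rose by 0.602 ± 0.144 (limma, adjusted p = 0.0237). PTGR3, a prostaglandin reductase, acts after HPGD in the breakdown route. It was at 6.7 to 7.05 in the day 7 pools and at 6.14 to 6.61 in the day 3 pools. It rose by 0.39 ± 0.106 (limma, adjusted p = 0.037). PTGR3 was 1 of 2 probe sets among the 36 with no overlap between the days, against 7.72% of all probe sets.

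Among the probe sets of this list that did not pass, the 4 largest averaged day changes were estimates of 1.90, 0.858 and 0.717 in 3 AKR1C4 probe sets (limma, adjusted p = 0.254, 0.487 and 0.114) and of 0.875 for the nuclear receptor PPARG (adjusted p = 0.452). AKR1C4 had 6 probe sets whose estimates ran from −0.238 to 1.90, and aldo-keto reductases of this family are near-copies of each other, so which gene they measure is uncertain. The first of these AKR1C4 probe sets and PPARG each had 1 day 3 pool at the floor of 0. PTGES3, a prostaglandin E synthase also known as a co-chaperone, was at 11.94 to 12.11 on day 7 and 12.13 to 12.35 on day 3. Its change was −0.228 (limma, adjusted p = 0.0518). It was the other of the 36 with no overlap between the days, where 7.72% of all probe sets had none.

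None of the 36 passed between receptive and non-receptive endometrium, and 6 did not overlap on day 7 and 6 on day 3, against 9.23% and 10.8% of all probe sets. PTGR1, which reduces the products of HPGD further, did not overlap on either day. Its leading probe set had 9.46, 9.37 and 9.14 in receptive day 7 pools and 10.03, 9.83 and 9.76 in non-receptive day 7 pools, and 8.93, 8.84 and 8.83 in receptive day 3 pools and 9.26, 9.26 and 10.03 in non-receptive day 3 pools. Receptive pools were thus below non-receptive pools on both days, with differences of −0.55 on day 7 (limma, adjusted p = 0.821) and −0.65 on day 3 (adjusted p = 0.936). In the second PTGR1 probe set the receptive pools were below the non-receptive pools on day 3 only, at 4.77 to 4.89 in receptive and 4.98 to 5.57 in non-receptive endometrium.

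On day 7 the 4 largest estimated differences in this list were 1.88 for PPARA, 0.883 for SLC22A6, −0.74 for an AKR1C4 probe set and 0.66 for TBXAS1 (limma, adjusted p = 0.821, 0.821, 0.821 and 0.883). The PPARA value came from a dim probe set at 0.81 to 4.14, and the brighter PPARA probe set differed by 0.08 (adjusted p = 0.975). The other 2 TBXAS1 probe sets differed by 0.097 and 0.197. SLC22A6, an organic anion transporter that accepts prostaglandins, had 4.15, 4.08 and 4.10 in receptive day 7 pools and 3.79, 3.08 and 2.81 in non-receptive day 7 pools. On day 3 the 4 largest estimates were those of PPARG, AKR1C3, PPARD and an AKR1C4 probe set (adjusted p = 0.936 to 0.962), but each had a day 3 pool at the floor of 0, so their sizes are not given. PTGER4, another receptor for prostaglandin E2, lay between 8.28 and 9.76 with an averaged day change of 0.003 (adjusted p = 0.996).

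For the 3 genes whose leading probe set varied most over the 12 pools, the named probe sets with the most similar profile were sought among 12663, by the mean absolute difference of log2 signals after each was centred on its own mean. For AKR1B1 (SD 1.094) they were RTP3 at 0.167, BCAT1 at 0.266, UGT1A6 at 0.267, EED at 0.282 and NUPR1 at 0.291, where the median over all was 0.927. RTP3 had 10.17, 9.05 and 9.46 in receptive day 7 pools, 10.10, 9.50 and 8.80 in non-receptive day 7 pools, 9.09, 7.46 and 9.84 in receptive day 3 pools, and 6.92, 6.83 and 9.62 in non-receptive day 3 pools. Its 3 low pools were those low in AKR1B1 and PTGIS. RTP3 was picked for its likeness to AKR1B1, so this match is not separate from that choice. AKR1B1 differed from PTGIS by 0.414 on the same measure.

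For PTGDS (SD 0.916) the nearest were TEK at 0.262, TIMD4 at 0.313, DAPP1 at 0.356, MGAT4A at 0.363 and RAMP2 at 0.377, with a median of 0.763 over all. TEK, an angiopoietin receptor of endothelial cells, had 5.61, 3.87 and 3.98 in receptive day 7 pools, 5.35, 4.2 and 5.08 in non-receptive day 7 pools, 6.33, 5.97 and 5.99 in receptive day 3 pools, and 5.86, 6.95 and 5.42 in non-receptive day 3 pools. In each of the 4 groups the pool highest in PTGDS was also the highest in TEK, which the choice of TEK by likeness favours. For PTGS2 (SD 2.157) they were CRYM at 0.693, CA2 at 0.706, CHGA at 0.776, SLC16A1 at 0.796 and SMPDL3B at 0.799, with a median of 1.767 over all. The differences grow with the spread of the gene itself, so they are not compared between the 3 genes.

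**Figure D5:**
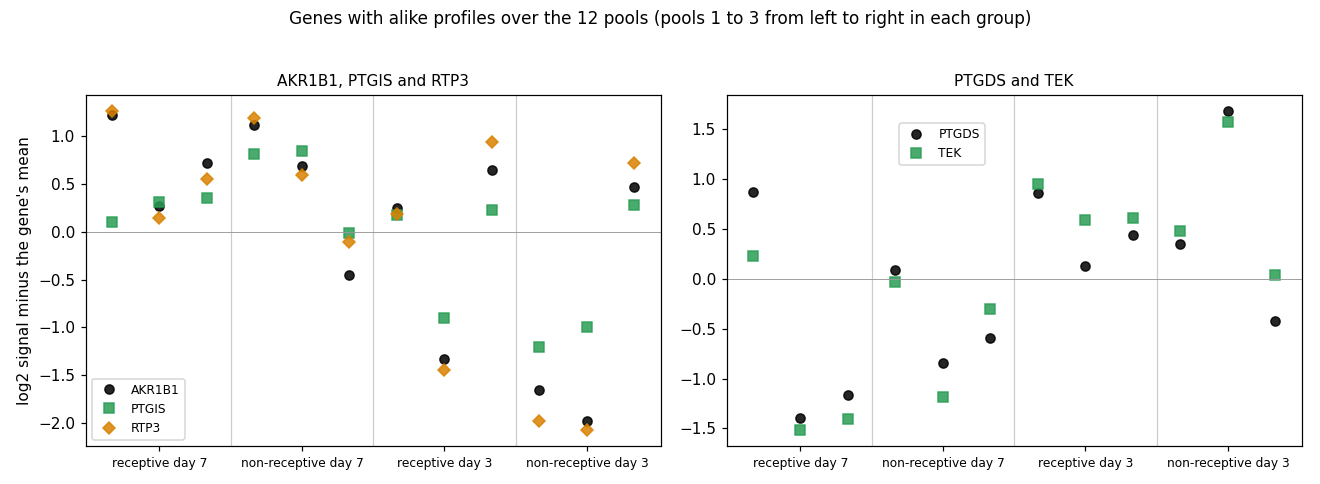
Log2 signal after subtraction of each gene's average across the 12 pools, for AKR1B1 with PTGIS and RTP3 (left) and for PTGDS with TEK (right), with pools 1 to 3 from left to right in each group. AKR1B1, PTGIS and RTP3 are low in the same 3 day 3 pools, and the PTGDS and TEK points are highest in the same pool within each group. RTP3 was picked for its likeness to AKR1B1 and TEK for its likeness to PTGDS, so their matches are not separate from that choice.

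Markers of several cell types moved with the day averaged over both receptivity groups, a comparison in which 4.76% of all probe sets were called higher and 9.44% lower on day 7. The 7 endothelial markers averaged 5.27, 5.15 and 4.89 in receptive day 7 pools, 5.29, 4.70 and 5.09 in non-receptive day 7 pools, 5.60, 5.5 and 5.33 in receptive day 3 pools, and 5.29, 5.52 and 5.01 in non-receptive day 3 pools, with 2 of 7 lower on day 7 by the test, TEK (−1.405, limma, adjusted p = 0.0328) and CDH5 (−0.792, adjusted p = 0.0347). The estimates of CLDN5 (0.422, adjusted p = 0.444) and VWF (0.325, adjusted p = 0.529) were above 0. The pool highest in PTGDS was highest in this average too in all 4 groups. TEK, picked above for its likeness to PTGDS, is part of this average, so the match is not separate from that choice. The average without TEK was not examined, and the part of endothelial RNA in the PTGDS levels was not tested.

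The 8 stromal fibroblast markers averaged 7.72 to 8.65 in receptive day 7 pools, 7.93 to 8.95 in non-receptive day 7 pools, 9.30 to 9.38 in receptive day 3 pools, and 8.0 to 10.35 in non-receptive day 3 pools, with 2 of 8 lower on day 7. Neutrophil markers (5 of 7 measured) averaged 9.39 to 10.49 in receptive day 7 pools, 9.15 to 9.85 in non-receptive day 7 pools, 7.12 to 8.5 in receptive day 3 pools and 7.92 to 8.12 in non-receptive day 3 pools. Of the 5, 3 were higher on day 7, namely S100A8, S100A9 and S100A12. MPO (0.313, limma, adjusted p = 0.425) and LTF (−0.007, adjusted p = 0.958) did not pass, and LTF lay at 13.75 to 13.96, near the top of the scale. Markers of stratified squamous epithelium (4 of 8 measured) averaged 6.74 to 8.44 in receptive day 7 pools, 8.42 to 8.69 in non-receptive day 7 pools, 5.47 to 6.01 in receptive day 3 pools and 5.99 to 6.18 in non-receptive day 3 pools, and all 4 were higher on day 7. Of the T and NK cell markers 3 of 8 were lower on day 7, with GNLY at −2.072 (limma, adjusted p = 0.00451), as were the leukocyte marker PTPRC (−0.718, adjusted p = 0.0156) and 1 of 2 B cell markers, MS4A1. Of the macrophage and monocyte markers 1 of 4, CD68, was higher (2.17, limma, adjusted p = 0.0103). The estimates of CSF1R (−0.532, adjusted p = 0.233) and AIF1 (−0.007, adjusted p = 0.99) were below 0, and CD14 was at 0.932 (adjusted p = 0.147). No smooth muscle or mast cell marker passed. The part of these cell types in the day changes of SLCO2A1 and HPGD was not tested.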

How the data were processed

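The authors deposited 1 table of log2 signals for 24128 probe sets on 12 arrays, with values from 0 to 14.06. Their processing notes list Affymetrix Expression Console, PLIER and GCOS 1.1.1 but not the role of each. How arrays were scaled is not given in the sources used. Values were used as deposited, without a filter, after leaving out 112 control probe sets. Symbols came from the platform annotation, in which 13292 tested probe sets had a single symbol, 86 had several (these named no gene) and 10638 had none. No genome coordinates or sequences were used. The number of arrays limits the precision.

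A mean for each group was fitted over the 12 arrays in R 4.3.3 with lmFit and eBayes of limma 3.58.1, leaving the pool number out. For the 7 contrasts, two-sided tests were used and an adjusted p under 0.05 was a call. The fit was tested on simulated data. The members and gene lists were chosen with earlier results of these data known. All 10 genes were named, with the probe set of highest mean signal first. From the wider pathway list, called probe sets and the 4 largest other changes were named. For likeness, the 5 nearest named probe sets of each of 3 members were taken. No 2 arrays held the same values (highest correlation 0.971). Averaged over all pairs of groups, pools of the same number did not deviate together, and the numbers were not taken as pairs. Between the receptive days, however, pools 1 to 3 had correlations of 0.352, 0.079 and 0.361, against −0.419 to 0.098 for different numbers. Between the non-receptive days they were −0.131, 0.128 and −0.067. A pairing within the receptive group is therefore not excluded, and the labels do not state one. Alternatives were quantile normalization, median centring, 2 filters on low values, trended and robust moderation, the arrays compared only, a pool number block, the actin gap as a covariate and each pool left out. Leaving out the 3 pools of high spike-in signal was added after seeing the data.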

Additional observations from a re-analysis of the deposited data

How the results depend on the processing

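Over 112 member changes and 2241 values under alternatives, 11 values lost a call, 19 gained one and no called change turned its sign. In non-receptive endometrium the count of members called between days was 1, and it was 0 in a fit of the compared arrays only, with the pool number as a replicate block, and without the 3 pools of high spike-in signal, and 0 to 1 when single pools were left out. Averaged over both receptivity groups the count was 1. It was 2 under quantile normalization, median centring, the filter on values of 0, trended and robust moderation and the actin covariate, where HPGD joined SLCO2A1, and 2 without the pools of high spike-in signal, where PTGS2 and PTGFR replaced it. Single pools left out gave 1 to 4. The 25th percentile filter left 9 of 16 member probe sets and called HPGD alone. All fits that leave out a pool or use fewer arrays also hold fewer samples; the cause of the other shifts was not tested. Same-numbered pools had a mean correlation of deviations of 0.015 over 18 pairs (−0.431 to 0.379), and the block left the averaged count at 1. Among all probe sets, 1144 were called higher and 2268 lower on day 7, against 1430 and 1814 after quantile normalization and 1601 and 1562 after median centring. The total of 3412 was 1861 without pool 1 of non-receptive day 3, 2146 without pool 1 of non-receptive day 7, 2190 without pool 3 of receptive day 3 and 1765 without the pools of high spike-in signal. In receptive endometrium alone the 471 calls were 9 without pool 1 and 16 without pool 3 of receptive day 3, and 9 to 1071 over all alternatives. In non-receptive endometrium the 596 calls were 4 without pool 1 of day 3, 89 without pool 2 of day 3, 89 without pool 1 of day 7 and 9 without the pools of high spike-in signal, and 4 to 1160 over all alternatives. Low signal limits SLCO2A1, PTGFR, the lesser PTGS1 probe set and the lesser PTGS2 probe sets.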
